A study of Danio rerio with 14 samples.

Results

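The genes described here are 52 listed genes of the zebrafish nervous system that make up the chemical synapse and the axon: proteins of vesicle release, enzymes and transporters of transmitters, receptors and their scaffold, and neuronal RNA-binding and cytoskeletal proteins. They were chosen by name and function, with no threshold on a measured value, but with earlier results of these data known. The list as a whole was therefore not tested against all genes. On the array, 46 of the 52 names matched at least 1 probe, giving 47 genes, because cplx2 is present as the duplicates cplx2a and cplx2b; vamp1 was measured as vamp1a and gabrb2 as gabrb2a. The 47 are part of 12811 named genes that could be measured. All 47 were well above background on all 14 arrays. The names syn2b, syt1a, sv2a, dlg4a, map2 and mapta were not analysed here.

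At a chemical synapse, SNARE proteins on the vesicle and on the cell membrane pull the membranes together, while complexins and calcium sensors time the release. Vesicular transporters fill vesicles with glutamate, GABA, glycine, acetylcholine or monoamines, and ionotropic receptors on the receiving cell open when the transmitter binds. Many of these genes are duplicated in zebrafish, so that an a and a b copy stand for 1 gene of mammals.

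The larvae were wild-type zebrafish of the AB strain, taken whole at an age of 5 days. From 3 h after fertilisation, 25 to 30 embryos per well were kept in 4 mL of medium at 28 °C, renewed every 24 h. Control wells (n = 4) held E3, an embryo saline, with 0.05% DMSO. Exposed wells held secondary effluent of a wastewater plant, reconstituted in the same saline at its original strength (1x, n = 5) or at 0.5x (n = 5), with at most 0.05% DMSO, so the solvent was shared by all groups. Each array carried 200 ng of total RNA from the pooled larvae of a well; the labels do not say whether wells came from separate clutches, so p-values measure the spread between wells.

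Values are log2 intensities less the array's 75th percentile (log2 signal). A gene passed when limma's p, adjusted by Benjamini-Hochberg over all 38786 kept probes, was under 0.05. An array's median intensity ran from 131 to 254, and 37225 to 39642 of 43603 probes were well above background. The arrays were scanned on 2 days. Day 1 held control replicates 1 and 2, 1x replicates 1, 2 and 3 and 0.5x replicate 1; day 2 held control replicates 3 and 4, 1x replicates 4 and 5 and 0.5x replicates 2 to 5. Control replicates 1 and 2 stood apart from the other arrays, and the main counts are also given without them. Such fits keep controls of scan day 2 alone beside exposed arrays of both days, so scan day is mixed into their changes. Because RNA came from whole larvae, fewer neurons, less RNA per neuron and more RNA from other tissues cannot be told apart.

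At 1x, 19 of the 47 genes fell and 0 rose against control. Among all genes, 16.3% fell and 10.3% rose. The median log2 fold change of the 47 genes was -0.43, beside -0.05 for all genes, and 42 of the 47 changes were below 0. The fallen genes numbered 7 of 15 for vesicle release, 3 of 11 for transmitter synthesis and transport, 3 of 12 for receptors and scaffold, and 6 of 9 for axon and cytoskeleton. Acetylcholinesterase (ache) fell 2.13-fold, and the complexin genes cplx4a and cplx2b fell 2.07-fold and 1.77-fold. Of the 19, 8 were also called without control replicate 1, where 8.01% of all genes fell, 9 without control replicate 2 (9.99%), and 3 without both (5.59%). Without both, the median change of the 47 genes was -0.17, beside -0.04 for all genes. With scan day as a block, 29 of the 47 fell, beside 21.3% of all genes: the 19 and gria2a, gria2b, grin1b, gabrb2a, glra1, nlgn1, gad1b, slc17a6b, vamp2 and sypb. The block fits 1 change for both days, whereas the changes of 25 of the 47 genes differed between the days.

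**Figure D1:**
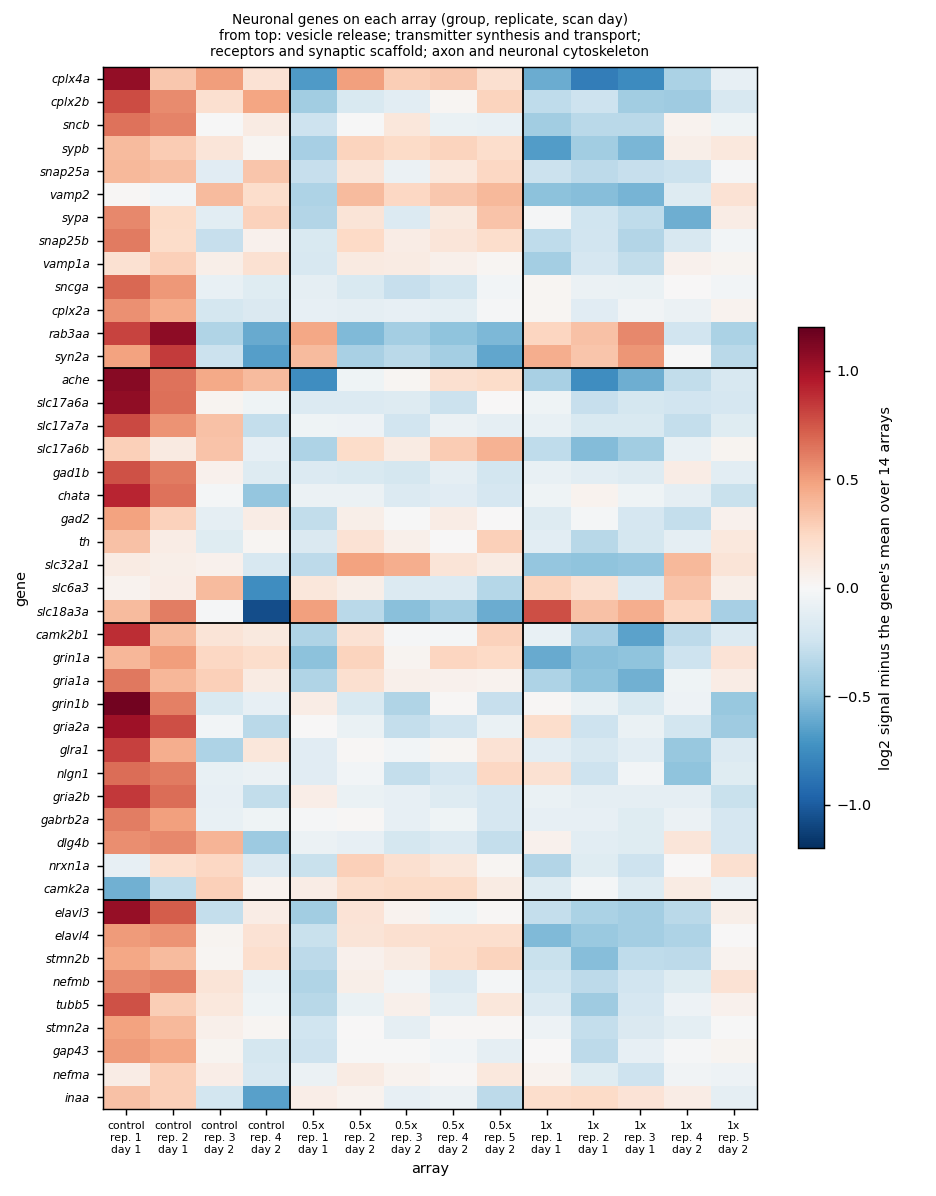
Log2 signal of 45 of the 47 genes (rows, by role and then by change at 1x) on each of the 14 arrays (columns, by group, with replicate and scan day), less the gene's mean over all arrays. Red is above and blue below that mean; control replicates 1 and 2 are the highest 2 arrays for 31 of the 45 genes drawn.

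The gene ache encodes the enzyme that breaks down acetylcholine in the synaptic cleft. Its log2 signal was 1.61, 1.16, 0.97 and 0.90 in control replicates 1 to 4, and 0.12, -0.23, -0.07, 0.21 and 0.32 in 1x replicates 1 to 5. In 0.5x replicates 1 to 5 it was -0.23, 0.47, 0.53, 0.71 and 0.73. Every control array lay above every exposed array, and the 1x and 0.5x arrays overlapped through 0.5x replicate 1 alone. The log2 fold change was -1.09 ± 0.20 (SE, limma, adjusted p = 0.00304) at 1x and -0.72 ± 0.20 (adjusted p = 0.04) at 0.5x. At 1x it passed in all 29 alternative fits, including those within scan day 1 (-1.44) and within scan day 2 (-0.67). At 0.5x the call was lost without control replicate 1 (adjusted p = 0.139) or 2 (adjusted p = 0.101), and within scan day 2 the change was -0.32 (adjusted p = 0.202).

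Complexins clamp and then promote SNARE-driven fusion; in mice, complexin 4 is found at the ribbon synapses of the retina. For cplx2b the signal was 1.17, 0.95, 0.58 and 0.86 in the controls, 0.09, 0.14, -0.03, -0.04 and 0.19 at 1x, and -0.03, 0.21, 0.26, 0.41 and 0.65 at 0.5x. All 1x arrays were below all controls, whereas 0.5x replicate 5 exceeded control replicate 3. It fell at 1x (-0.82 ± 0.14, adjusted p = 0.00217) and at 0.5x (-0.59 ± 0.14, adjusted p = 0.0235). The fall at 1x passed within scan day 1; within day 2 the change was -0.64 and missed the threshold (adjusted p = 0.0827). The 0.5x call was lost without control replicate 1 (adjusted p = 0.0818) or 2 (adjusted p = 0.0749).

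For cplx4a the controls read 1.81, 1.08, 1.25 and 0.93, the 1x arrays 0.16, -0.08, 0.00, 0.37 and 0.65, and the 0.5x arrays 0.08, 1.24, 1.05, 1.08 and 0.95. The 1x arrays were all below the controls, and at 0.5x replicate 1 was. The gene fell at 1x (-1.05 ± 0.24, adjusted p = 0.00796); the 0.5x change was -0.39 ± 0.24 (adjusted p = 0.271). Its changes at 1x were -1.42 within scan day 1 and -0.58 within day 2 (adjusted p = 0.0868), and without control replicates 1 and 2 the call was lost (adjusted p = 0.0623). Its dimmer probe gave -0.56 at 1x and missed the threshold (adjusted p = 0.0819).

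**Figure D2:**
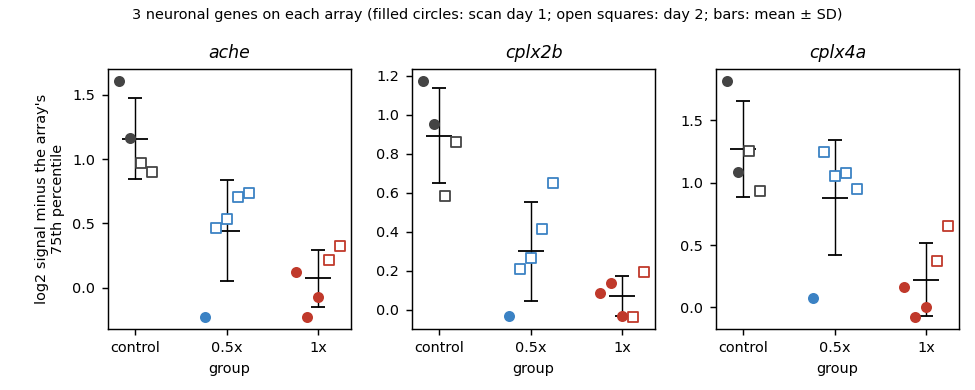
Log2 signal less the array's 75th percentile of ache, cplx2b and cplx4a on each array by group; filled circles are scan day 1, open squares scan day 2, and bars give the mean ± SD of 4 control, 5 0.5x and 5 1x arrays. In each gene the 1x arrays lie below all controls, and 0.5x replicate 1, the 0.5x array of scan day 1, lies at the level of the 1x arrays.

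Of the other vesicle genes, vamp1a, snap25a and sncb also fell at 1x. The vesicle SNARE gene vamp1a fell by 0.35 ± 0.11 on the log2 scale (adjusted p = 0.0366), from 4.15 to 4.37 in the controls to 3.67 to 4.13 at 1x. The membrane SNARE gene snap25a changed by -0.46 ± 0.14 (adjusted p = 0.0242) on its brightest probe, and its other 3 probes gave -0.23, -0.14 and -0.01, none past the threshold. Beta-synuclein (sncb), a presynaptic protein, fell by 0.55 ± 0.15 (adjusted p = 0.0183) on its brighter probe. There, controls 1 and 2 read 5.70 and 5.64 and controls 3 and 4 read 5.04 and 5.14, beside 4.62 to 5.08 at 1x. The dimmer sncb probe gave -0.41 and missed the threshold (adjusted p = 0.0635). All 3 calls were lost without control replicate 1 or 2, with adjusted p between 0.0591 and 0.0947.

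The vesicle genes farthest from a call were the synapsin gene syn2a, which tethers vesicles (0.09 ± 0.29, adjusted p = 0.832), and the vesicle GTPase gene rab3aa (-0.11 ± 0.34, adjusted p = 0.821). Both followed the scan day in every group: rab3aa read -0.65 and -0.39 in the controls of day 1 and -1.83 and -2.07 in those of day 2, -1.21 to -0.89 and then -1.84 to -1.69 at 1x, and -1.01 and then -2.01 to -1.87 at 0.5x. The remaining vesicle genes, snap25b, vamp2, sypa, sypb, cplx2a and sncga, had changes of -0.50 to -0.19 at 1x and did not pass. With scan day as a block, vamp2 (adjusted p = 0.0085) and sypb (adjusted p = 0.0314) did. Within scan day 2 vamp2 changed by -0.29 and sypb by 0.01.

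Of the transmitter genes other than ache, the vesicular glutamate transporters slc17a6a and slc17a7a fell. For slc17a6a the controls read -1.04, -1.45, -2.08 and -2.16, and the 1x arrays -2.16, -2.39, -2.32, -2.34 and -2.31. The groups touched without overlapping, and control replicates 3 and 4 were close to the 1x arrays. The change was -0.62 ± 0.18 (adjusted p = 0.023), and -0.19 without control replicates 1 and 2 (adjusted p = 0.218). For slc17a7a it was -0.53 ± 0.16 (adjusted p = 0.0281), with controls from -1.96 to -0.88 and 1x arrays from -1.96 to -1.76. Without control replicate 1 the adjusted p became 0.0663 for slc17a6a and 0.0961 for slc17a7a. Without control replicate 2 they were 0.0682 and 0.0792.

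The GABA synthesis genes gad1b and gad2 (-0.40 ± 0.16 and -0.31 ± 0.13) and the choline acetyltransferase gene chata (-0.36 ± 0.21) did not pass, with adjusted p of 0.0703, 0.0855 and 0.208. The brightest of 8 gad2 probes stands for the gene; 4 dimmer ones passed, with -0.88 to -0.48. With scan day as a block, gad1b (adjusted p = 0.0365) and slc17a6b (adjusted p = 0.0399) passed. Within scan day 2 they changed by 0.04 and -0.15, and for gad1b the days differed (limma, adjusted p = 0.00638). In the fit without the block, no call was made for tyrosine hydroxylase (th, -0.21 ± 0.13), the dopamine transporter slc6a3 (0.20 ± 0.19), the vesicular glutamate transporter slc17a6b (-0.42 ± 0.17), the vesicular GABA transporter slc32a1 (-0.18 ± 0.20, adjusted p = 0.53) or the vesicular acetylcholine transporter slc18a3a (0.30 ± 0.32, adjusted p = 0.495). A dimmer probe of slc32a1 passed (-0.46, adjusted p = 0.0318). Of the 3 cholinergic genes, the degrading enzyme fell past the threshold. The synthesis and vesicle filling genes, with changes of opposite sign, missed it, and the differences between the 3 were not tested.

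Among the receptors, the AMPA receptor subunit gene gria1a fell by 0.63 ± 0.16 on the log2 scale (adjusted p = 0.013). Its controls read 2.15, 1.92, 1.80 and 1.61 and its 1x arrays 1.15, 1.04, 0.94, 1.47 and 1.61. The groups did not overlap, but 1x replicate 5 reached the level of control replicate 4. Both probes of gria1a passed, the second at -0.65 (adjusted p = 0.00882).

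The gene grin1a encodes the obligatory subunit of NMDA receptors. It read 2.83, 2.94, 2.68 and 2.65 in the controls and 1.83, 1.94, 1.95, 2.18 and 2.60 at 1x, again without overlap. It fell by 0.67 ± 0.18 (adjusted p = 0.0153). The postsynaptic kinase gene camk2b1 fell by 0.71 ± 0.17 (adjusted p = 0.0112), with controls of -1.10, -1.60, -1.83 and -1.87 and 1x arrays of -2.07, -2.38, -2.63, -2.30 and -2.15. These 3 calls held in every fit that left out 1 array. Without control replicates 1 and 2 the changes were -0.47, -0.56 and -0.46 for gria1a, grin1a and camk2b1, with adjusted p of 0.116, 0.114 and 0.0992.

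The duplicate receptor genes gria2a, gria2b and grin1b had changes of -0.51, -0.41 and -0.53 at 1x and did not pass, as did gabrb2a of the GABA receptor (-0.36), the glycine receptor gene glra1 (-0.47), the adhesion gene nlgn1 (-0.43) and the scaffold gene dlg4b (-0.33). With scan day as a block all of these but dlg4b passed, with adjusted p from 0.0196 (gria2a) to 0.0328 (nlgn1). For gria2a, gria2b, grin1b and gabrb2a the change differed between the days (limma, adjusted p from 0.00498 to 0.0482). Within scan day 2 it was -0.15, 0.01, -0.12 and -0.06. For glra1 and nlgn1 no such difference was called, and their changes within day 2 were -0.19 and -0.24. Dimmer probes of gabrb2a (2 of its 3 probes, at -0.84 and -0.60) and of grin1b (2 of 6, at -0.87 and -0.86) also passed. So did the dimmer probe of dlg4b (-0.58, adjusted p = 0.0148). On their brightest probes, the adhesion gene nrxn1a (-0.15 ± 0.14, adjusted p = 0.442) and the kinase gene camk2a (0.08 ± 0.15, adjusted p = 0.719) were farthest from a call. A dimmer nrxn1a probe passed (-0.58, adjusted p = 0.0356). Both camk2a and camk2b1 encode subunits of 1 kinase family; only the second passed, and the difference between them was not tested.

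In the axon list, the neuronal RNA-binding genes elavl3 and elavl4, both widely used as markers of postmitotic neurons, changed by -0.66 ± 0.22 and -0.66 ± 0.15 (adjusted p = 0.0395 and 0.00711). Their arrays differed in pattern. For elavl3 the controls read 1.46, 1.14, 0.13 and 0.51 and the 1x arrays 0.13, 0.03, 0.01, 0.09 and 0.49, so control replicates 3 and 4 lay within or just above the 1x arrays. For elavl4 the controls read 3.67, 3.70, 3.20 and 3.34 and the 1x arrays 2.64, 2.73, 2.76, 2.80 and 3.17, without overlap. A dimmer elavl4 probe passed (-0.53, adjusted p = 0.0227), and another missed the threshold (-0.44, adjusted p = 0.113). The elavl4 call held in every fit that left out 1 array, but not without both control replicates 1 and 2 (adjusted p = 0.0839); the elavl3 call was lost without control replicate 1 (adjusted p = 0.136) or 2 (adjusted p = 0.113).

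The stathmin genes stmn2a and stmn2b, regulators of microtubules in growing axons, fell by 0.37 ± 0.12 and 0.54 ± 0.14 (adjusted p = 0.0306 and 0.0154). Of the 6 probes of stmn2a, the brightest passed, and the other 5 lay between -0.09 and 0.01. The neurofilament gene nefmb fell by 0.47 ± 0.15 (adjusted p = 0.0371) and the tubulin gene tubb5 by 0.45 ± 0.16 (adjusted p = 0.0484), whose dimmest probe gave 0.51 (adjusted p = 0.0726). Without control replicate 1 the calls of all 4 genes were lost (adjusted p from 0.0517 to 0.164), and without control replicate 2 that of stmn2b alone was kept (adjusted p = 0.0443). The growth cone gene gap43 (-0.28 ± 0.14), nefma (-0.15 ± 0.11, adjusted p = 0.287) and the intermediate filament gene inaa (0.17 ± 0.18, adjusted p = 0.483) did not pass. A dimmer nefma probe passed (-0.64, adjusted p = 0.0348), whereas the dimmer nefmb probe gave -0.21 and missed the threshold (adjusted p = 0.291).

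**Figure D3:**
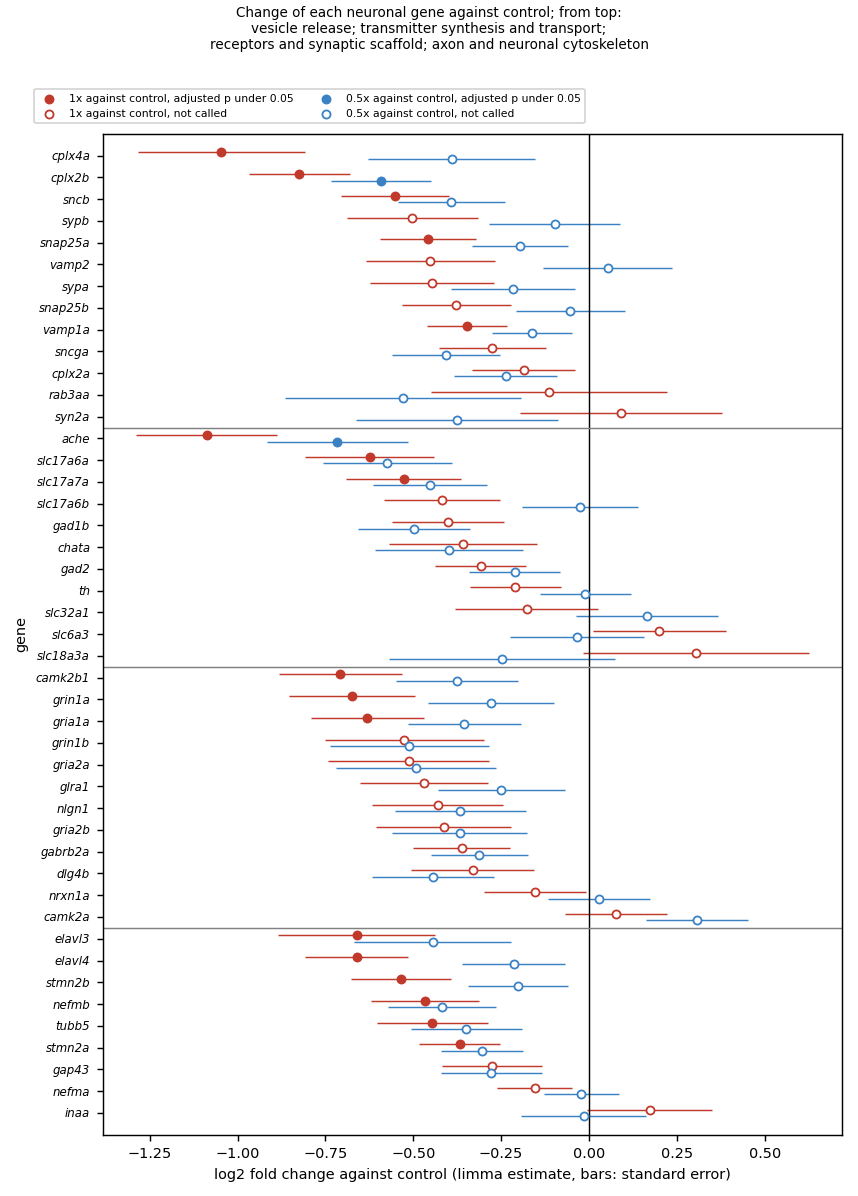
Log2 fold change against control of 45 of the 47 genes, by role, at 1x (red) and at 0.5x (blue), with bars for the standard error of the limma fit; filled points passed an adjusted p under 0.05. Of the genes drawn, 17 passed at 1x, all below 0, and at 0.5x cplx2b and ache did.

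Counted by overlap, 12 of the 47 genes had all 1x arrays below all control arrays, which held for 12.4% of all genes. At 0.5x this was so for 4, ache and stmn2a among them, against 6.00% of all genes. Without control replicates 1 and 2, where fewer arrays must be cleared, the counts were 13 (20.4% of all genes) and 4 (10.2%). By limma, 2 of the 47 genes fell and 0 rose at 0.5x, where 4.33% of all genes fell and 4.37% rose; the share of the 47 was near that background. At an unadjusted p under 0.05, 17 were called, beside 29.1% of all genes. By role, 1 vesicle gene and 1 transmitter gene passed, and the median change was -0.28 for vesicle release, -0.25 for transmitters, -0.36 for receptors and -0.28 for the axon genes. The median change of the 47 at 0.5x was -0.30, beside -0.04 for all genes, with 43 of 47 below 0. Without control replicates 1 and 2 the median was -0.0045 and 0 of the 47 passed.

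Between 1x and 0.5x, 0 of the 47 genes passed by limma (9 at an unadjusted p under 0.05, beside 22.0% of all genes), while 4.32% of all genes did (2.65% lower and 1.67% higher at 1x). The median change was -0.16, beside -0.02 for all genes, and 36 of the 47 genes were lower at 1x. The lowest adjusted p belonged to elavl4 (-0.45 ± 0.14, adjusted p = 0.0858). This count rested on 0.5x replicate 1, which was the lowest of the 0.5x arrays for 30 of the 47 genes. Without it 9 genes were lower at 1x, where 6.53% of all genes were. Among them were vamp2, sypb, cplx4a, ache, slc17a6b, grin1a, elavl4 and stmn2b, with changes of -0.86 (cplx4a) to -0.43 (stmn2b). In that fit 1x arrays of both scan days met 0.5x arrays of day 2 alone, so scan day is mixed into these changes. Within scan day 2, where 2 1x arrays met 4 0.5x arrays, 0 passed and the median was -0.10, beside -0.01 for all genes. Within scan day 1, where 3 1x arrays met 1 0.5x array, the median was -0.02, beside 0.03 for all genes. The 2 groups were thus unequally split between the days.

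The scan days divided the response. Within scan day 1, with 2 control and 3 1x arrays, 40 of the 47 genes were lower at 1x, beside 26.4% of all genes, and the median change was -0.72, beside -0.10. Within scan day 2, with 2 control and 2 1x arrays, 2 were lower, ache among them, beside 2.01% of all genes, the median was -0.09, beside -0.01, and 30 of the 47 changes were below 0. A model with a term for the difference between the days called 25 of the 47 genes at 1x, where 17.2% of all genes were called, and 28 at 0.5x, where 19.1% were. In each of these the change on day 1 was below that on day 2. Some changes on day 2 were above 0, such as that of slc32a1 (0.35 at 1x). The 0.5x group had 1 array on day 1, and its spread there was taken from the other groups.

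The strongest difference by adjusted p was that of sncb, with -0.98 on day 1 and -0.05 on day 2 (difference 0.93 ± 0.15, adjusted p = 0.00331). The vesicle membrane gene sypb, a synaptophysin, changed by -0.89 and 0.01 (0.91 ± 0.15, adjusted p = 0.00346), and elavl3 by -1.25 and -0.03 (1.22 ± 0.23, adjusted p = 0.00687). For ache the days also differed (0.78 ± 0.22, adjusted p = 0.0374), and the gene fell on both days. For cplx2b the difference was 0.36 ± 0.22 and did not pass (adjusted p = 0.282).

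**Figure D4:**
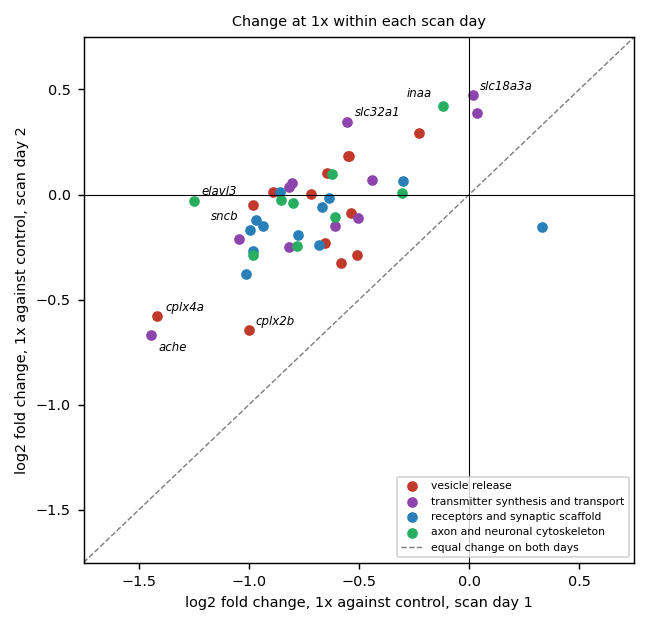
Log2 fold change at 1x against control within scan day 1 (horizontal, 2 control and 3 1x arrays) and within scan day 2 (vertical, 2 and 2 arrays) for 45 of the 47 genes, coloured by role; the dashed line marks equal change. Most points lie left of 0 and near 0 on the vertical axis, and cplx4a, ache and cplx2b lie below -0.5 on both.

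The arrays that differed between the days were not the same for every gene; the genes in this paragraph were picked after their values were seen. For gria2b, the control replicates 1 and 2 read 3.20 and 3.02, and the other 12 arrays lay between 2.05 and 2.43, control replicates 3 and 4 included. The gene gad1b showed the same, with 2.64 and 2.50 against 1.65 to 1.97. For the vesicle SNARE gene vamp2, in contrast, control replicates 1 and 2 (4.62 and 4.58) were not above control replicates 3 and 4 (4.99 and 4.82). Its exposed arrays of scan day 1 read 4.05 to 4.24 and those of day 2 read 4.45 to 5.00; its change at 1x was not called for a difference between the days (0.22 ± 0.17, adjusted p = 0.362). The gene sypb was like vamp2 in its exposed arrays, with 4.02 to 4.30 on day 1 and 4.77 to 4.96 on day 2, beside 4.71 to 5.08 in the controls. Over the 47 genes, the median difference between day 1 and day 2 was 0.49 in the controls, -0.12 at 1x and -0.26 at 0.5x.

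Markers of other tissues moved in control replicates 1 and 2 as well. The median of the 47 genes, taken as the deviation of each gene from its mean over all arrays, was 0.57 and 0.45 there, 0.04 and -0.05 in control replicates 3 and 4, and -0.25 to 0.05 on the exposed arrays. Hepatocyte markers (17 of 20 listed genes measured) stood at -1.98 and -0.97 in control replicates 1 and 2, beside 0.09 and 0.52 in the other controls and 0.14 to 0.42 on the exposed arrays. The log2 of their summed unlogged signals (log2 sum) ran from 8.78 to 10.2 in the controls. It was 9.84 to 10.1 at 0.5x and 9.89 to 9.97 at 1x.

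Exocrine pancreas markers (19 of 21) stood at -2.55 and -1.83 against 0.69 and 1.08. Their log2 sums were 7.73 to 11.3 in the controls, 10.6 to 11.0 at 0.5x and 9.76 to 10.4 at 1x. Enterocyte markers (15 of 15) stood at -1.43 and -0.99 against 0.18 and 0.14. Their log2 sums were 6.80 to 8.47, 8.58 to 8.93 and 8.48 to 8.66, with the groups in the same order. These liver, pancreas and gut genes were thus lowest in the same 2 control wells in which the neuronal genes were highest. All measured markers of the 3 lists were well above background on every array.

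Several other lists, neural or not, went with the neuronal genes. Photoreceptor markers (19 of 20) stood at 0.51 and 0.43 in control replicates 1 and 2, and radial glia and progenitor markers (16 of 17) at 0.36 and 0.35. Their log2 sums were 9.97 to 10.4 and 7.20 to 7.84 in the controls. These were 9.65 to 9.99 and 7.03 to 7.38 at 0.5x, and 9.64 to 9.85 and 6.98 to 7.34 at 1x. Skeletal muscle markers (17 of 19) stood at 0.35 and 0.15 in control replicates 1 and 2 and at 0.02 and 0.12 in replicates 3 and 4. Control replicate 2 was thus close to replicate 4 for muscle. The muscle log2 sums were 11.9 to 12.3 in the controls, 11.6 to 11.95 at 0.5x and 11.6 to 11.8 at 1x. Myelin markers (10 of 13) did not go with the neuronal genes, at -0.11 and 0.15 in control replicates 1 and 2. At 1x, 9 of 17 muscle markers fell and 1 rose, a larger share lower than that of the 47 genes. Among all genes 16.3% fell and 10.3% rose. Of the other lists, 7 photoreceptor, 6 radial glia and 3 skin markers (of 13) and 0 myelin markers fell, and 5 hepatocyte, 3 enterocyte, 6 cell cycle (of 18), 1 radial glia (cyp19a1b, brain aromatase, 1.97) and 0 pancreas markers rose. Without control replicates 1 and 2, muscle markers numbered 0 lower and 1 higher, photoreceptor markers 1 and 2, and radial glia markers 1 and 1. Hepatocyte markers numbered 2 lower and 1 higher, enterocyte markers 1 and 0, and skin markers 2 and 0. In the same fit 16 pancreas markers fell and 0 rose, and 12 cell cycle markers rose and 0 fell. Of all 12811 genes, 716 fell and 742 rose in it. The part of these tissue differences in the changes of the neuronal genes was not tested.

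**Figure D5:**
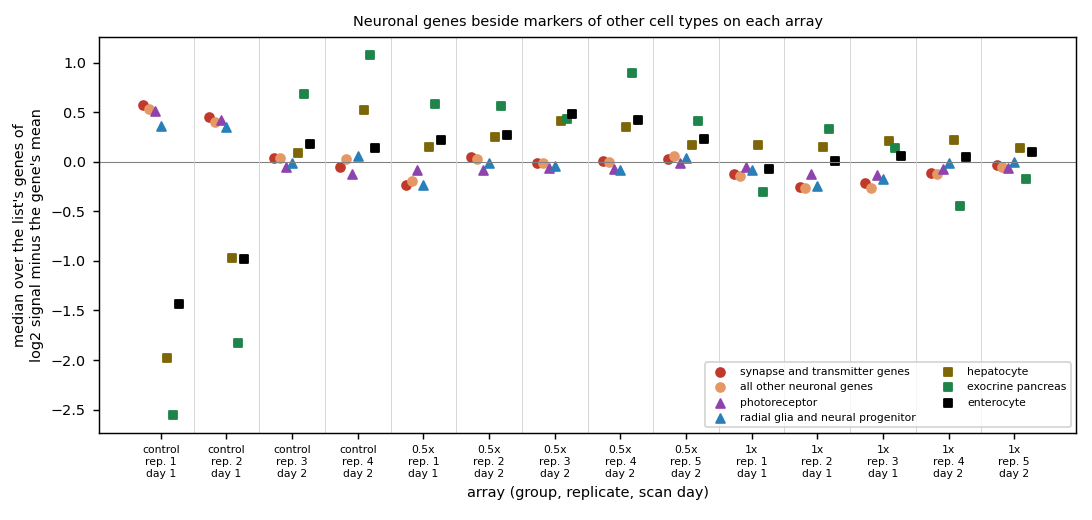
Median over the genes of a list of the log2 signal less the gene's mean over all arrays, for each of the 14 arrays: the 47 synapse and transmitter genes, 124 other neuronal genes and markers of 5 other cell types. In control replicates 1 and 2 the neuronal, photoreceptor and radial glia lists lie at 0.35 to 0.57 and the liver, pancreas and gut lists at -2.55 to -0.97.

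The other genes of these pathways were taken from lists of 222 further names, of which 124 genes could be measured. Of these, 57 (46.0%) fell and 1 rose at 1x, beside 16.3% and 10.3% of all genes, with a median of -0.41. Without control replicates 1 and 2, 14 fell and 4 rose, with a median of -0.22. In that fit 716 of all 12811 genes fell and 742 rose. In all, 52 of the 124 were called for a difference between the scan days at 1x, beside 17.2% of all genes. The median of the 124 genes at 1x was -0.67 within day 1 and -0.12 within day 2. At 0.5x, 13 fell and 0 rose, beside 4.33% and 4.37% of all genes. Without those controls 2 fell and 1 rose at 0.5x, while 73 of all genes fell and 151 rose.

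Among other vesicle cycle genes 16 of 23 fell, from cplx3b, another complexin of retinal synapses in mice (-1.13 ± 0.16, adjusted p = 0.000916), and dnm1a, a dynamin that pinches off recycled vesicles (-0.98 ± 0.23, adjusted p = 0.00888), to syngr1a (-0.44 ± 0.11) and nsfa (-0.43 ± 0.14), the ATPase that takes SNARE complexes apart. Other glutamate receptor genes fell in 4 of 8, from grm6b, the receptor of retinal ON bipolar cells in mammals (-0.93 ± 0.19, adjusted p = 0.00548), and the NMDA subunit gene grin2bb (-0.88 ± 0.21) to gria4b (-0.62 ± 0.21) and gria1b (-0.61 ± 0.18). Neuronal ion channel genes fell in 11 of 17, from the sodium channel gene scn1laa (-0.98 ± 0.29, adjusted p = 0.023) and the potassium channel gene kcna2b (-0.89 ± 0.17) to scn8ab (-0.52 ± 0.18) and kcnd3 (-0.46 ± 0.14). The probe of scn1laa was well above background on 3 of the 5 1x arrays. Within scan day 2 the changes of cplx3b, grm6b and kcna2b were -0.71, -0.54 and -0.53.

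Of the other inhibitory genes 3 of 15 fell, among them the glycine receptor gene glra3 (-0.65 ± 0.21) and the GABA transporter slc6a1b (-0.43 ± 0.11). The shares of the lists were not tested against each other. Among cholinergic and monoamine genes 5 of 18 fell, including the dopamine receptor gene drd4a (-0.87 ± 0.19), the nicotinic subunit gene chrna6 (-0.82 ± 0.21), the decarboxylase gene ddc (-0.67 ± 0.18) and the muscarinic receptor gene chrm2a (-0.65 ± 0.14).

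Adhesion and scaffold genes fell in 8 of 18, from camk2g1 (-0.80 ± 0.25) and the scaffold gene dlg2 (-0.79 ± 0.16) to nlgn3a (-0.46 ± 0.15) and camk2d1 (-0.30 ± 0.09). At 0.5x camk2d1 fell more (-0.64, adjusted p = 0.00137), and it was higher at 1x than at 0.5x (0.35, adjusted p = 0.0402). Its changes at 1x were -0.31 and -0.30 within scan days 1 and 2. Of 25 other axon and identity genes 10 fell, among them the adhesion gene l1cama (-0.85 ± 0.16, adjusted p = 0.00344), elavl2 (-0.64 ± 0.20) and the sodium pump gene atp1a3b (-0.40 ± 0.14). The 1 gene that rose was the stathmin gene stmn4 (0.71 ± 0.19, adjusted p = 0.0178), with 1.21 within scan day 2 and -0.24 at 0.5x (adjusted p = 0.409).

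Duplicate pairs were compared by the difference between the log2 signals of their a and b copies, for the 8 pairs chosen for testing that had both copies on the array (among them snap25, syp, stmn2, nefm, slc17a6, gria2 and grin1). Over 3 comparisons this gave 24 exact two-sided permutation tests, and 0 passed after Benjamini-Hochberg adjustment (5 at an unadjusted p under 0.05). Of the pairs named, nefm came nearest: at 0.5x nefma changed by -0.02 and nefmb by -0.42, a difference of 0.40 (exact permutation p = 0.0159, adjusted p = 0.127). That p is the smallest that 4 against 5 arrays allow. A single pair at that p could not pass the adjustment over 24 tests, so the count of 0 does not show equal changes. On their other probes nefma and nefmb changed by -0.34 and -0.31 at 0.5x, so the difference rested on the probe chosen. The pair cplx2a and cplx2b was not among those tested; its changes at 1x were -0.19 and -0.82. Changes of both copies had the same sign in all 8 tested pairs at 1x.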

How the data were processed

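The authors deposited scanner output for 14 1-colour arrays, from Agilent Feature Extraction 10.7 by the submitters' processing notes. The processed signal, per the file headers, is an intensity after subtraction of background. They also deposited a matrix of log2 values, whose derivation was not given in the sources used here; it follows the log2 signal less the 75th percentile, centred by slide (r of 1.00 on 3 of the 4 slides, 0.872 and 0.901 on slide 1; column medians from -0.0661 to 0.110), and served as an alternative.

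Control spots and 73 outlier spots were left out and 0 spots were saturated. Probes entered the fit when the scanner marked them well above background on 4 or more arrays within 1 group. Probe accessions were matched to the GRCz12tu gene table for names alone (25978 of 43603 probes). The kept probe with the highest mean stood for a gene. Groups were compared with limma 3.58.1 (R 4.3.3) on all 14 arrays without a block, as tested on simulated data; permutation tests used SciPy 1.17.1. The number of arrays limits the precision (median SE 0.165 against control). The genes described and the other lists were chosen with earlier results of these data known. A few genes of these lists, though fitted and counted, are not reported by name or drawn here. In each role list, values are given for every other gene called against control and for the 2 with the highest adjusted p at 1x, and for the other lists the 2 lowest and 2 highest called changes. Alternatives changed the background correction (normexp with an offset of 50, on the median spot intensity), scaling, filter, probe rule, arrays, weights and blocks; counts of overlap and of the other lists without control replicates 1 and 2 were added after seeing the data.

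Replicate numbers were not used to pair the samples. Same-numbered arrays of different groups correlated at -0.22 to 0.49 in their deviations from group means, and differently numbered ones at -0.70 to 0.49. Both sets mix pairs within and between scan days, so these ranges do not settle whether the numbers pair.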

Additional observations from a re-analysis of the deposited data

Results flagged for a closer look

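Arrays standing apart from the rest of their group were sought in 150 sets of values, 45 of the 47 genes and 5 list medians in 3 groups; chance alone marks about 1 in 20. In all, 21 were marked, and 12 of these belong to 0.5x replicate 1, the 0.5x array of scan day 1. It was the lowest of its group for vamp2 (4.24, next value 4.86), sypb (4.30, next 4.91), cplx4a (0.0763, next 0.95), ache (-0.23, next 0.47), gad2 (4.87, next 5.17), gria1a (1.16, next 1.56) and elavl4 (2.90, next 3.33). It was the highest for rab3aa (-1.005, next -1.87) and slc18a3a (-1.58, next -2.39). It was also the lowest in the median deviation of all 47 genes (-0.24, next -0.01), of the vesicle genes (-0.27, next 0.09) and of the axon genes (-0.26, next -0.03).

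Among the controls, replicate 3 was low for snap25a (3.98, next 4.45), and replicate 4 was low for slc32a1 (2.93, next 3.17) and dlg4b (-2.26, next -1.42). At 1x, replicate 5 was high for snap25a (4.11, next 3.87) and elavl3 (0.49, next 0.13) and low for gria2b (2.09, next 2.24). Replicate 4 at 1x was high for gad1b (1.97, next 1.78) and low for glra1 (-1.35, next -1.09). At 0.5x, replicate 5 was high for cplx2a (2.79, next 2.71).

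The change against control differed between the scan days, by limma's interaction term, for 25 of the 47 genes at 1x and for 28 at 0.5x. Control replicates 1 and 2, both of scan day 1, were above control replicates 3 and 4 for 39 of the 47 genes. Slides 1 and 2 held all arrays of scan day 1, and slides 3 and 4 all arrays of scan day 2. The labels do not say what else the arrays of a scan day shared. The day of scanning, the slides and anything else that went with the day cannot be told apart.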

How the results depend on the processing

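At 1x the 19 called genes became 12 with array medians in place of the 75th percentile or with the 2 groups compared fitted alone, 35 with array weights, 29 with slide or scan day as a block, 40 within scan day 1, 2 within scan day 2 and 4 (1 higher, inaa, and 3 lower) without control replicates 1 and 2. Of all 12811 genes, 1470 fell with array medians, 1487 with the 2 groups alone and 2612 with array weights. With slide or scan day as a block, 2475 and 2727 fell. Within scan days 1 and 2 it was 3387 and 258. Without control replicates 1 and 2, 716 of all genes fell and 742 rose. The median of -0.43 moved to -0.72 and -0.088 within scan days 1 and 2 and to -0.17 without control replicates 1 and 2. Leaving out 1 array in turn gave 8 to 31 called genes and medians from -0.55 to -0.29. The count was 8 and 9 without control replicates 1 and 2 in turn, 31 without control replicate 4, and 11 without 1x replicate 2 or 3. Of all genes, 1026, 1280, 2328, 1409 and 1242 fell in these fits, in that order.

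At 0.5x the 2 called genes became 0 with array medians, with the 2 groups fitted alone or within scan day 2. They became 0 without control replicates 1 and 2, 1 without the filter on dim probes and 21 (1 higher, 20 lower) with array weights. The median of -0.30 moved to -0.73 and 0.0194 within scan days 1 and 2 and to -0.0045 without control replicates 1 and 2. Leaving out 1 array gave 0 to 17 called genes, the highest without control replicate 4, and medians from -0.41 to -0.19. Without control replicate 4, 1508 of all genes were lower at 0.5x and 1583 higher. With array weights, 1706 of all genes were lower at 0.5x and 1723 higher. The 0.5x group had 1 array on scan day 1, so the count of 32 rests on the spread of the other groups. Between 1x and 0.5x, array weights gave 23 called genes (3 higher, 20 lower) in place of 0, leaving out 1 array 0 to 9, and medians from -0.21 to -0.12. With array weights, 2638 of all 12811 genes were lower at 1x than at 0.5x and 1984 higher. The scan-day difference was called for 10 to 26 genes at 1x and 7 to 31 at 0.5x when 1 array was left out. Of all 38786 kept probes, 2021 to 7542 were called at 1x and 1916 to 9489 at 0.5x in these fits. Both probe counts were lowest without control replicate 1, where 10 and 7 of the 47 genes were called. They were highest without control replicate 2, with 25 and 31 genes. The counts for the 47 genes thus moved with those for all probes, and all genes were not counted in these fits. The paralog tests passed for 0 pairs with each other background correction or scaling, the deposited matrix, the mean of a gene's probes, and each single array left out. They were not run under the other alternatives. With so few arrays a single unequal pair could not pass in any of these runs, so the repeated 0 does not show equal changes.

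With the replicate number as a block, called genes were 24 at 1x, 2 at 0.5x and 0 between them, with medians of -0.47, -0.33 and -0.16. In that fit 2284 of all genes fell at 1x and 616 at 0.5x. Scaling by array medians put 1482 of all called genes higher and 1470 lower at 1x, beside 1320 and 2089, and normexp 1250 and 3129; for the 47 genes each scaling gave 0 higher. No called gene changed sign in any alternative. The probes that stood for the 47 genes were all well above background on every array. Whether low signal changed the size of any fold change was not tested.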
